A study of Homo sapiens with 13 samples.

Results

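DBI, TMA7, SUB1, SLIRP, PDCD5 and C14orf166 encode small proteins with unrelated functions. Their mRNAs were followed in RNA bound to the translation factor eIF4G and in total RNA of U2OS cells, a human osteosarcoma line. The 6 genes were picked by symbol from 26454 genes in the deposited table, for a high level in the eIF4G immunoprecipitate (IP) of control cells relative to total RNA and a steep fall in the IP of rapamycin-treated cells. Genes of the ribosome and of the respiratory chain were kept out of the choice. Levels in the control IP, in control total RNA and in the rapamycin IP therefore chose the members, and those values are given here as a description with no test. All 6 passed the filter on low values, which kept 9908 genes with at least 1 FPKM (reads per kilobase of gene body, scaled to the depth of the library) in at least 2 libraries.

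eIF4G is the scaffold of the cap-binding complex eIF4F, which brings capped mRNAs to the small ribosomal subunit. The kinase complex mTORC1, which rapamycin inhibits in part, controls eIF4F assembly through the eIF4E-binding proteins, and mRNAs that begin with a 5′ terminal oligopyrimidine (TOP) tract are among its best known translational targets. CDK12 is a kinase that phosphorylates the tail of RNA polymerase II and is known for its part in the expression of long genes and DNA repair genes. DBI binds acyl-CoA esters. TMA7 is named after its yeast counterpart, a protein that co-purifies with ribosomes. SUB1, also called PC4, is a single-strand DNA-binding coactivator of RNA polymerase II transcription. SLIRP binds mitochondrial mRNAs together with LRPPRC. PDCD5 is linked to apoptosis and binds the chaperonin CCT. C14orf166, now named RTRAF, is a subunit of the tRNA ligase complex.

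The control cells received a control siRNA and a mock treatment, the CDK12 siRNA cells an siRNA against CDK12 and the same mock treatment, and the rapamycin cells the control siRNA with rapamycin. siRNA transfection lasted 48 h, and rapamycin was given at 50 ng/ml for 24 h. The IP gave 3 control libraries, 2 of CDK12 siRNA cells (replicates 2 and 3) and 2 of rapamycin cells, and total RNA gave 2 libraries for each condition, 13 in all. The labels name no mock IP, so RNA held by eIF4G and RNA carried along in the IP cannot be told apart. The titles of all rapamycin libraries carry one date and those of all others another, so rapamycin and that date cannot be told apart. Nothing in the labels says that replicates are separate cultures, and the spread behind each p-value may be technical.

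Depths recovered from the FPKM steps ran from 12.9 to 30.6 Mtags (mega-tags) per library. CDK12 itself stood at 1.64 and 1.72 FPKM in control total RNA and at 0.706 and 0.707 FPKM after its siRNA. In the IP, CDK12 stood at 0.497, 0.532 and 0.535 FPKM in control cells and at 0.493 and 0.338 FPKM after its siRNA, so there the groups lay close together. The 8 mesenchymal markers chosen for an osteosarcoma line summed to between 68.4 and 277 FPKM over the libraries, led by VIM, while COL1A2 reached no more than 0.030 FPKM. The 4 epithelial markers summed to no more than 2.43 FPKM and the 4 haematopoietic markers to no more than 0.291 FPKM. The rapamycin IP libraries stood apart from the other IP libraries. Across the tested genes their mean profile correlated at r = 0.944 with total RNA of rapamycin cells and at 0.838 with the control IP. The nuclear noncoding RNAs MALAT1, NEAT1 and KCNQ1OT1 summed to between 342 and 414 FPKM in the rapamycin IP, against 115 to 141 FPKM in the control IP, 116 to 159 FPKM in the CDK12 siRNA IP and 681 to 1032 FPKM in total RNA of control and CDK12 siRNA cells. MYO1D alone took 5.50% and 6.31% of the tags of the rapamycin IP libraries, 0.341% and 0.817% in the CDK12 siRNA IP, and at most 0.0765% elsewhere. The part of these differences in the members' values was not tested.

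All 6 genes lie on the plus strand of hg19, are listed with 1 genomic copy and overlap no other gene of the table. DBI spans chr2:120125251-120130122 (4871 bp), TMA7 chr3:48481686-48485537 (3851 bp) and SUB1 chr5:32585605-32604185 (18580 bp). SLIRP spans chr14:78174414-78183941 (9527 bp), PDCD5 chr19:33072094-33078358 (6264 bp) and C14orf166 chr14:52456228-52471420 (15192 bp). The median gene body of the table is 15088 bp, so 4 of the 6 are shorter than most genes and SUB1 and C14orf166 are not. The downstream end of SLIRP lies 3 bp from SNW1 and that of C14orf166 100 bp from NID2, and the start of TMA7 lies 157 bp from CCDC51, each neighbour being on the opposite strand. Whether the authors counted by strand is unknown here, so reads that run past the end of such a neighbour could not be separated.

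The sequence around the transcription start is shown because TOP mRNAs are recognised by their first bases. Each line gives 15 bases before and 15 bases from an annotated start, 5′ to 3′, from the RefSeq promoter table of GRCh38.p14, a different build from the deposited values. Capitals mark the first 5 transcribed bases. For DBI, which has 4 annotated starts, and SLIRP, which has 2, the most upstream start comes first.
DBI, chr2:119366962-119366991: ctaaaggcgcttgccAGTGCaatctgggcg
TMA7, chr3:48440242-48440271: tggggcagacgctccGTTTCcggtggcagg
SLIRP, upstream start, chr14:77708056-77708085: ccggaaattttttccGGGGCcgcgacctcg
SLIRP, downstream start, chr14:77708088-77708117: tcgagaaggtgctttAGTCTgaagatggcg
PDCD5, chr19:32581175-32581204: cgcgagcgcctgcgcAGTGGtcaaggccgc
C14orf166, chr14:51989531-51989560: cagcgcctgcccgccCTCTCgccgcgtcgc

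Of the 5 genes with an entry in that table, C14orf166 alone had an annotated start with C followed by 4 pyrimidines, the letters searched for as a TOP start. None of the 4 starts of DBI had it. That form was present in 6.24% of 15843 protein-coding genes and in 44 of 65 ribosomal protein genes of the table. SLIRP carried the core ATGGCGGC of the short-leader element TISU downstream of its starts, found in 2.75% of the genes and in 1 of the 65 ribosomal protein genes. The site is shown with the core in capitals and begins 10 bases from the downstream start.
SLIRP, chr14:77708104-77708123: gtctgaagATGGCGGCctca
SLIRP also held CCGGAAG on either strand within its promoter entries, as did 16.5% of the genes. CCAAT on either strand was present in DBI, PDCD5, C14orf166 and TMA7, and in 42.1% of the genes. A match in these windows describes letters only and is not a measured site.

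In control cells the mRNAs were 12.8 to 23.7 times as high in the IP as in total RNA, by the ratio of mean FPKM. DBI, the acyl-CoA binding protein, was the highest of the group. It stood at 25.3 and 23.4 FPKM in control total RNA and at 603, 563 and 562 FPKM in the control IP. SUB1, the coactivator, stood at 8.63 and 9.03 FPKM in control total RNA and at 153, 147 and 125 FPKM in the control IP. C14orf166, the tRNA ligase subunit, stood at 6.57 and 6.50 FPKM in control total RNA and at 109, 96.3 and 86.8 FPKM in the control IP. For these 3 genes every IP library lay far above every total RNA library. PDCD5 stood at 2.70 and 3.73 FPKM in control total RNA and at 50.7, 49.4 and 51.2 FPKM in the control IP. SLIRP stood at 1.45 and 1.48 FPKM in control total RNA and at 35.8, 28.7 and 34.9 FPKM in the control IP. TMA7, the lowest in the control IP, stood at 1.47 and 2.29 FPKM in control total RNA and at 24.0, 29.2 and 18.8 FPKM in the control IP. In the control IP the order from DBI through SUB1, C14orf166, PDCD5 and SLIRP to TMA7 held without overlap of libraries at each step except between SLIRP and TMA7. FPKM here is per length of the whole gene body, introns included, so the order among genes also reflects how much of each body is exon.

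**Figure D1:**
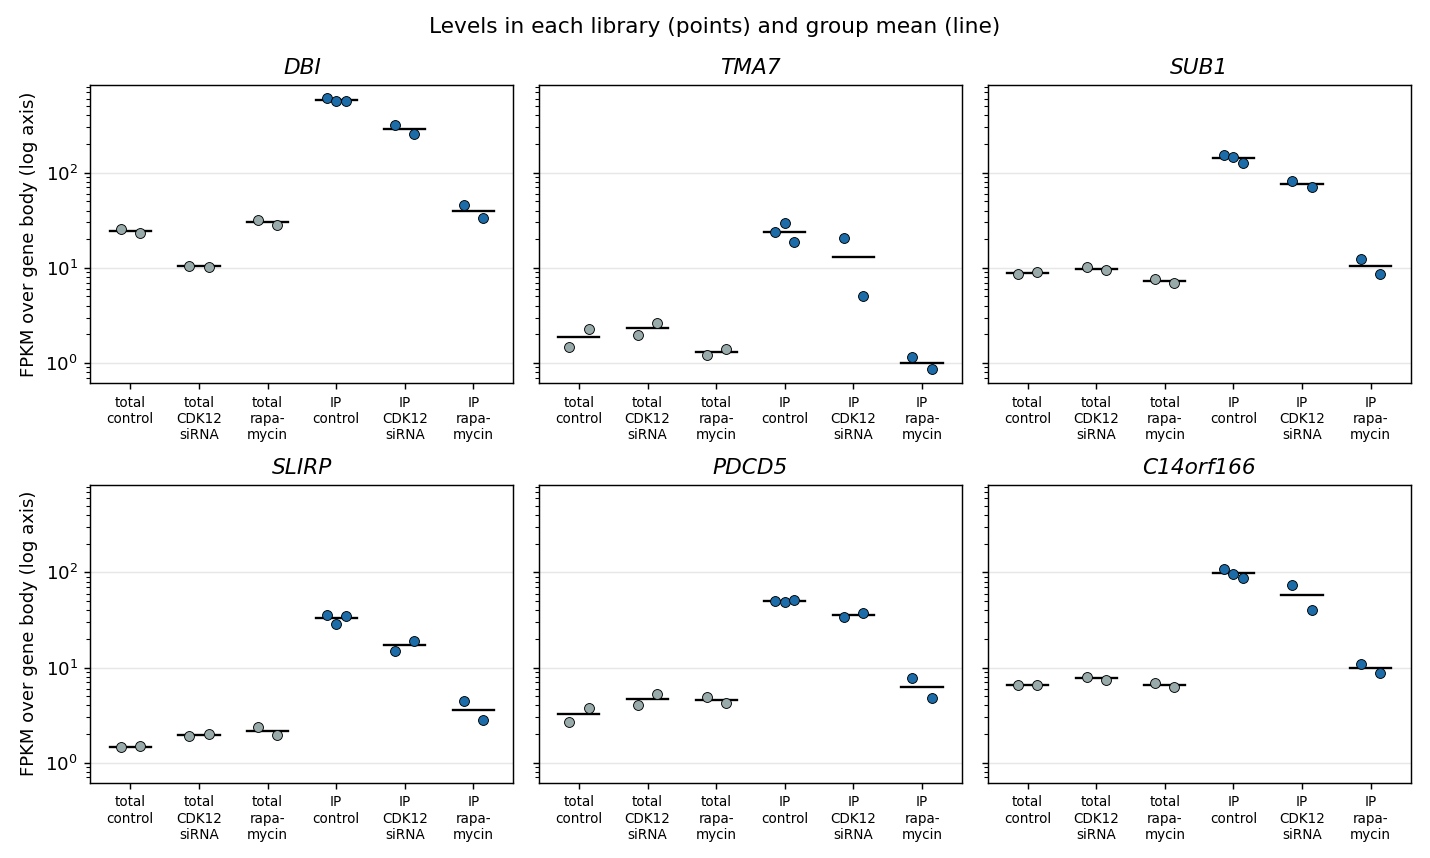
FPKM over the gene body (log axis) of the 6 genes in each of the 13 libraries, 1 panel per gene. Points are libraries and short lines are group means. The CDK12 siRNA IP libraries lie below the control IP libraries or, for TMA7, overlap them, and the rapamycin IP libraries lie near total RNA.

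In the rapamycin IP the 6 mRNAs had 4.19% to 12.3% of their mean control IP level. DBI stood at 45.6 and 33.3 FPKM in the rapamycin IP, 6.84% of its control IP mean. TMA7 stood at 1.16 and 0.854 FPKM, 4.19% of its control IP mean, which rests on 62 to 89 reads per library. SUB1 stood at 12.3 and 8.59 FPKM, 7.37% of its control IP mean. Replicate 1 was the higher rapamycin IP library for each gene. SLIRP stood at 4.41 and 2.80 FPKM (10.9%), the chaperonin-binding PDCD5 at 7.68 and 4.75 FPKM (12.3%), and C14orf166 at 10.9 and 8.76 FPKM (10.1%). No rapamycin IP library reached a control IP library for any of the 6. In bulk samples fewer cells holding an mRNA and less of it per cell cannot be told apart.

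On the log2(FPKM + 1) scale after scaling of libraries, the scale of all log2 values here, the IP exceeded total RNA in control cells by 3.30 (TMA7) to 4.71 (DBI), against a median of 0.35 over all tested genes. These differences ranked between place 5 (DBI) and place 146 (TMA7) from the top of 9908 genes. The rapamycin IP minus the control IP was -4.16 for DBI, -3.95 for SUB1, -3.86 for TMA7, -3.49 for C14orf166, -3.18 for SLIRP and -3.15 for PDCD5. The median over all genes was -0.05, and the members ranked between place 6 (DBI) and place 46 (PDCD5) from the lowest. In the 171 other genes whose IP exceeded total RNA by at least 3 in control cells, the median was -2.31 and 170 were below 0. That class lies outside the ribosomal and respiratory families and was formed from the same control libraries as the members. Adding 1 FPKM before the logarithm understates the change of low genes, here most for TMA7. Within rapamycin cells the IP exceeded total RNA by 0.46 to 0.62 for DBI, SUB1, SLIRP, PDCD5 and C14orf166, and TMA7 was lower in the IP, with a difference of -0.11. The median in that contrast was 0.18 over all genes and 0.81 over the 171 other genes of high control IP over total. The ratio of mean FPKM in rapamycin cells was 1.31 for DBI, 0.773 for TMA7, 1.44 for SUB1, 1.67 for SLIRP, 1.36 for PDCD5 and 1.49 for C14orf166. Across 9908 genes, the slope of IP minus total in rapamycin cells on IP minus total in control cells was 0.27 (r = 0.626), and that of CDK12 siRNA cells was 0.94 (r = 0.875). Both relations share the control libraries, and genes are not independent replicates, so these are descriptions.

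**Figure D2:**
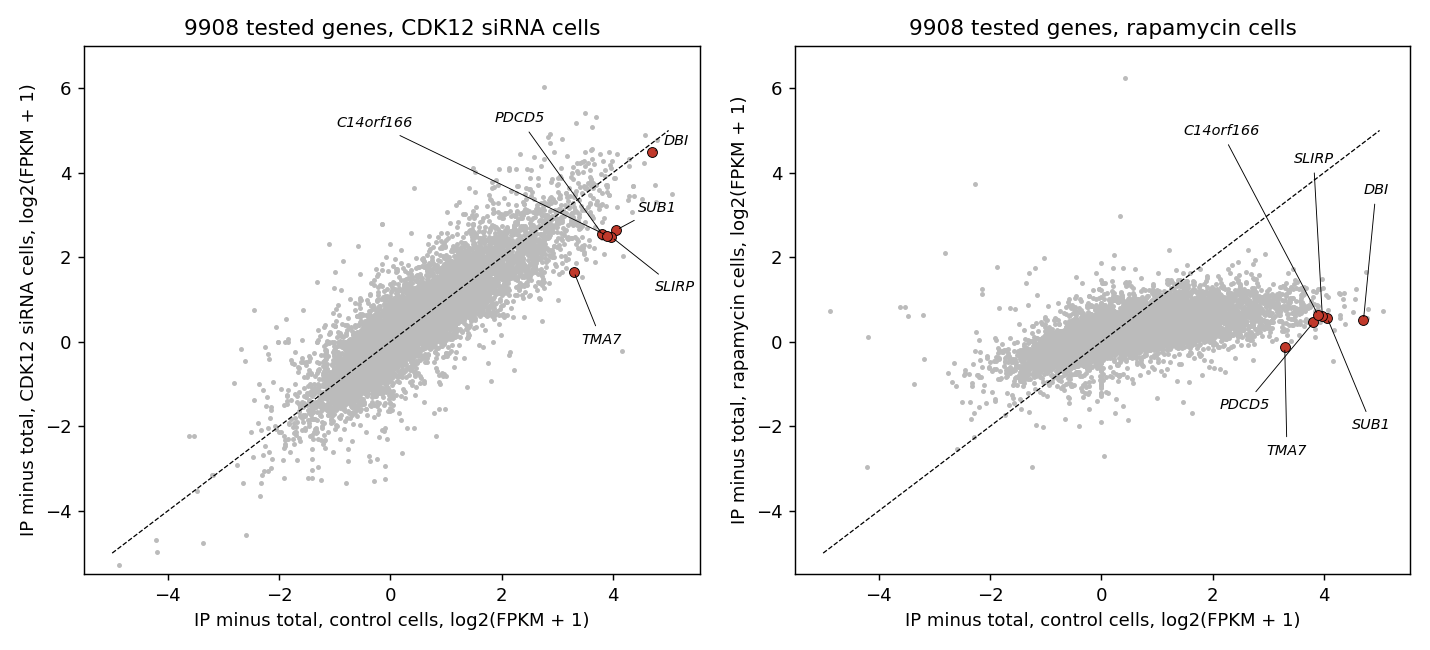
IP minus total RNA on the log2(FPKM + 1) scale for 9908 tested genes (grey) and the 6 members (red), in control cells (horizontal) against CDK12 siRNA cells (left) or rapamycin cells (right). The dashed line marks equal values. In CDK12 siRNA cells DBI lies near the line and the other 5 below it, and in rapamycin cells all 6 lie between -0.11 and 0.62.

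The CDK12 siRNA libraries were not used to choose the members, so IP over total RNA within CDK12 siRNA cells repeats the measure in other samples. All 6 mRNAs were higher in the IP there (limma, adjusted p no higher than 0.00791), where 82.5% of all tested genes passed in either direction, 55.7% higher and 26.8% lower. Their median difference was 2.53, against 0.40 over all tested genes. The 171 other genes of high control IP over total had a median of 3.15, above that of the members, and 170 of them were higher. DBI stood at 10.5 and 10.2 FPKM in total RNA and at 318 and 257 FPKM in the IP of CDK12 siRNA cells, a log2 difference of 4.48 ± 0.16 (SE; limma, adjusted p = 3.98e-08). SUB1 stood at 10.1 and 9.48 FPKM in total RNA and at 81.2 and 69.9 FPKM in the IP, a log2 difference of 2.64 ± 0.17 (limma, adjusted p = 5.63e-07). PDCD5 stood at 4.05 and 5.23 FPKM in total RNA and at 34.0 and 37.3 FPKM in the IP, a log2 difference of 2.54 ± 0.21 (limma, adjusted p = 1.97e-06). In each of these 3 genes the IP libraries lay above the total RNA libraries by more than the spread within either group.

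C14orf166 stood at 8.01 and 7.35 FPKM in total RNA and at 73.9 and 40.6 FPKM in the IP of CDK12 siRNA cells, a log2 difference of 2.51 ± 0.24 (limma, adjusted p = 5.76e-06). SLIRP stood at 1.89 and 1.98 FPKM in total RNA and at 15.1 and 19.2 FPKM in the IP, a log2 difference of 2.48 ± 0.19 (limma, adjusted p = 1.2e-06). TMA7 stood at 1.97 and 2.64 FPKM in total RNA and at 20.6 and 5.11 FPKM in the IP, a log2 difference of 1.66 ± 0.47 (limma, adjusted p = 0.00791). The TMA7 groups did not overlap, but its IP libraries lay far apart. One library moved the TMA7 value by over 1.5 times, to 0.79 without replicate 2 of the CDK12 siRNA IP and to 2.56 without replicate 3. TMA7 missed the threshold under quantile normalization (0.77, adjusted p = 0.122) and with factors from tested genes (1.11, adjusted p = 0.0512), a removed length trend (1.10, adjusted p = 0.0617) or the compared groups alone (1.70, adjusted p = 0.0714). The other 5 passed under each alternative that was run, but their differences were smaller under quantile normalization, at 0.75 for SUB1, 0.74 for C14orf166, 1.03 for PDCD5, 1.52 for SLIRP and 2.85 for DBI. Across all tested genes the difference correlated with gene body length (Spearman rho = -0.41 across genes), and protein-coding genes with bodies of at most 20 kb outside the ribosomal and respiratory families had a median of 0.90 over 4170 genes.

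**Figure D3:**
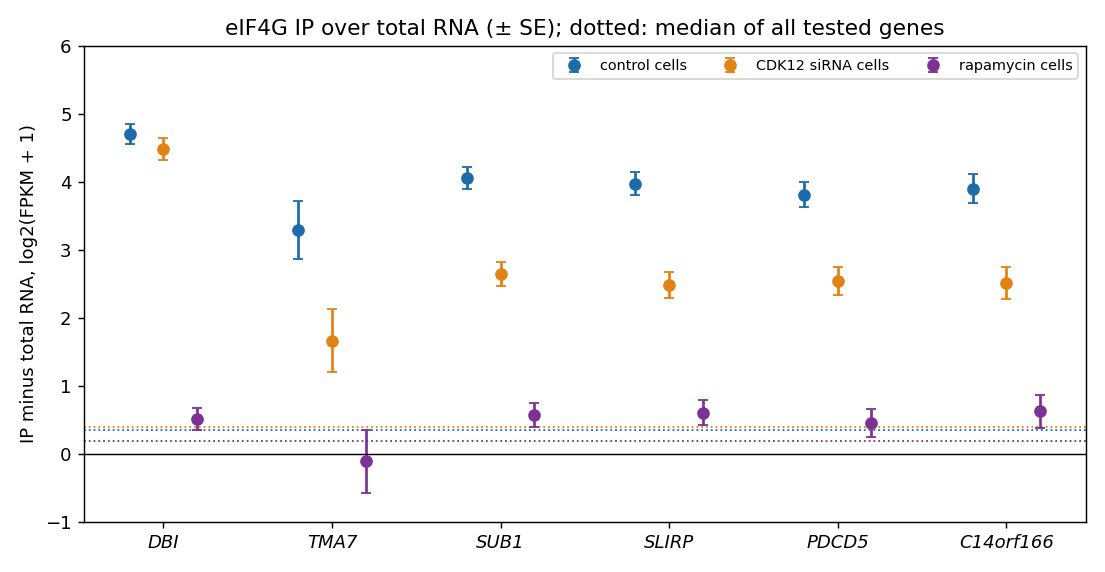
IP minus total RNA on the log2(FPKM + 1) scale for each member in control, CDK12 siRNA and rapamycin cells. Points are fitted differences, bars are ± SE, and dotted lines are the medians of all tested genes. Values in control cells (3.30 to 4.71) chose the members. Values in rapamycin cells (-0.11 to 0.62) contain the rapamycin IP levels that also chose them. Both are described only, and values in CDK12 siRNA cells run from 1.66 to 4.48.

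IP levels after CDK12 siRNA are given beside the control IP as a description with no test. The members were chosen for high levels in those control IP libraries, which by itself favours lower values elsewhere. Mean IP levels after CDK12 siRNA were 50.0% of control for DBI, 51.7% for SLIRP, 53.2% for SUB1, 53.5% for TMA7, 58.7% for C14orf166 and 70.6% for PDCD5. The libraries of the CDK12 siRNA IP lay below each control IP library for 5 genes. For TMA7 they overlapped in FPKM, with replicate 2 at 20.6 FPKM inside the control range. How many of all tested genes separate in this way was not counted, so nothing is read from the 5.

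The log2 difference between the CDK12 siRNA IP and the control IP was -1.19 ± 0.15 (SE) for DBI, -1.08 ± 0.16 for SUB1 and -1.09 ± 0.17 for SLIRP. It was -0.99 ± 0.22 for C14orf166, -0.67 ± 0.19 for PDCD5 and -1.28 ± 0.43 for TMA7. The values of TMA7 and C14orf166 depended on which CDK12 siRNA IP library was used. Without replicate 3 they were -0.39 for TMA7 and -0.59 for C14orf166, and without replicate 2 they were -2.18 and -1.40. Under quantile normalization the differences were -0.39 for DBI, -0.39 for PDCD5, -0.63 for C14orf166, -0.76 for SLIRP, -0.78 for SUB1 and -0.90 for TMA7. Each stayed below 0 under the alternatives that were run.

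Over all tested genes 32.0% passed the threshold in this contrast, 18.4% lower and 13.7% higher. All 6 members stood past it as lower, and nothing is read from that count. The median over the members was -1.09, against -0.02 over all tested genes. The 171 other genes whose IP exceeded total RNA by at least 3 in control cells, again outside the ribosomal and respiratory families, had a median of -0.37. That class was formed from the same control libraries as the members. For nuclear noncoding RNA the CDK12 siRNA IP (116 to 159 FPKM) overlapped the control IP (115 to 141 FPKM).

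In total RNA, DBI and the other members did not move together after CDK12 siRNA. Of the 6, 1 was lower and 1 higher, where 42.8% of all tested genes passed, 23.3% higher and 19.5% lower. Control total RNA is the denominator of the value that chose the members, which favours higher values in other total RNA libraries. DBI went from 25.3 and 23.4 FPKM to 10.5 and 10.2 FPKM, 42.5% of its control mean, and fell by 0.96 ± 0.16 (SE; limma, adjusted p = 0.00126), a call that held under each alternative that was run. PDCD5 went from 2.70 and 3.73 FPKM to 4.05 and 5.23 FPKM and rose by 0.60 ± 0.21 (limma, adjusted p = 0.0407). A rise is the direction that the choice of members favours, so nothing is read from this call. The PDCD5 groups did not overlap, but its difference varied with the libraries used. It was 0.77 and 0.44 without replicate 1 or 2 of CDK12 siRNA total RNA, and 0.40 without control total RNA replicate 1. The PDCD5 call was lost without scaling (0.42, limma adjusted p = 0.114) and with a pseudocount of 5 (adjusted p = 0.073). It was also lost without the filter (adjusted p = 0.0515), with the replicate block (adjusted p = 0.0706) and with the compared groups alone (adjusted p = 0.0681).

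The remaining 4 did not pass. The differences in total RNA were 0.40 ± 0.19 for SLIRP (limma, adjusted p = 0.117), 0.33 ± 0.17 for SUB1 (adjusted p = 0.157), 0.40 ± 0.24 for C14orf166 (adjusted p = 0.213) and 0.36 ± 0.47 for TMA7 (adjusted p = 0.577). Libraries of SUB1, SLIRP and C14orf166 lay above both controls without overlap, and those of TMA7 overlapped. The share of all tested genes that separate in this way was not counted, so nothing is read from it. The SEs pool the spread of all 6 groups. Read counts differed more between the 2 CDK12 siRNA IP libraries (chi-square of 61.8 per degree of freedom) than between replicates in total RNA (3.68 to 4.86). With the compared groups fitted alone the SE was 0.059 for C14orf166 and 0.19 for TMA7, and 59.3% of 7643 genes passed. SUB1 (limma, adjusted p = 0.0313), SLIRP (adjusted p = 0.00621) and C14orf166 (adjusted p = 0.0134) then passed as higher, and PDCD5 did not (adjusted p = 0.0681). Higher is again the direction that the choice of members favours.

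The IP relative to total RNA in CDK12 siRNA cells is likewise set beside control cells with no test, since the control value is the one that chose the members. By ratios of mean FPKM, IP over total was 22.6 in control and 8.86 in CDK12 siRNA cells for SLIRP, 16.1 and 7.71 for SUB1, 14.9 and 7.45 for C14orf166, and 15.7 and 7.68 for PDCD5. The ratios were 12.8 and 5.58 for TMA7, and 23.7 and 27.8 for DBI. DBI was the one member whose ratio was not lower in CDK12 siRNA cells.

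On the log2 scale the difference of both IP over total values was -1.49 ± 0.25 (SE) for SLIRP, -1.41 ± 0.24 for SUB1, -1.39 ± 0.32 for C14orf166 and -1.27 ± 0.28 for PDCD5. For TMA7 it was -1.63 ± 0.63, with -2.53 without CDK12 siRNA IP replicate 2 and -0.74 without replicate 3. For DBI it was -0.23 ± 0.22, but 0.15 without scaling and 0.70 under quantile normalization. The median was -1.40 over the members, -0.03 over all tested genes and -0.23 over the 171 other genes of high control IP over total. Over all tested genes 39.2% passed in this interaction, 22.4% lower and 16.7% higher, beside 4 of the 6 members as lower, and nothing is read from that count.

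**Figure D4:**
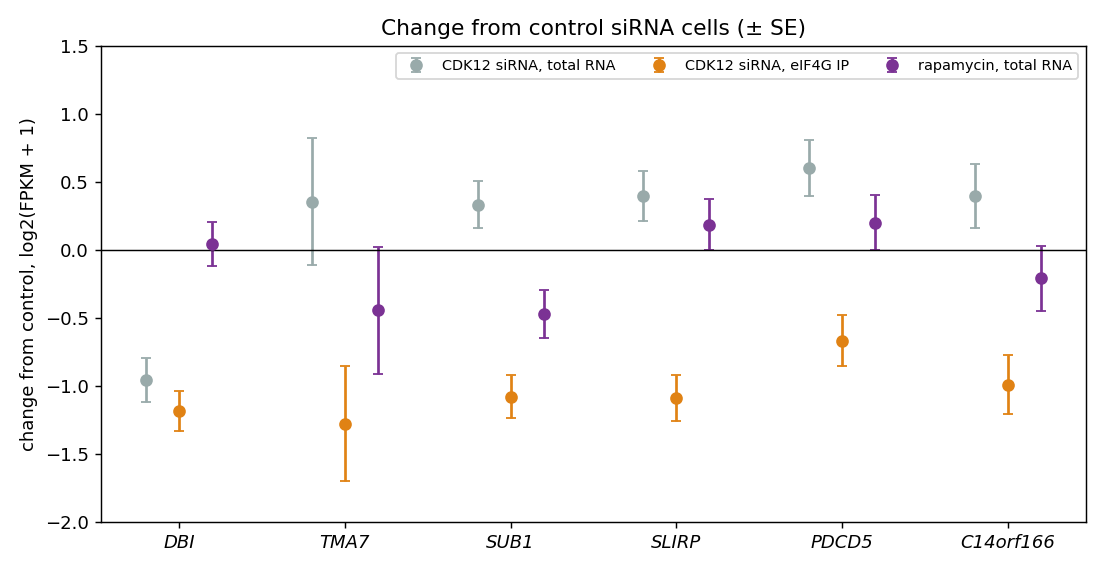
Change from control siRNA cells on the log2(FPKM + 1) scale for each member, in the IP after CDK12 siRNA, in total RNA after CDK12 siRNA and in total RNA after rapamycin. Points are fitted differences and bars are ± SE. All 6 are below 0 in the CDK12 siRNA IP (-0.67 to -1.28), and in CDK12 siRNA total RNA DBI alone is below 0 (-0.96).

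In total RNA of rapamycin cells none of the 6 passed (limma), where 36.7% of all tested genes passed, 20.4% higher and 16.2% lower. Those rapamycin libraries were not used to choose the members, but the control total RNA libraries were. At an unadjusted p under 0.05, SUB1 alone passed. SUB1 went from 8.63 and 9.03 FPKM to 7.62 and 6.92 FPKM, a difference of -0.47 ± 0.17 (SE; limma, adjusted p = 0.0606), and it passed as lower with the compared groups alone (-0.42, adjusted p = 0.0122) and under 5 further alternatives. TMA7 stood at 1.20 and 1.41 FPKM, below both controls, with a difference of -0.45 ± 0.47 (adjusted p = 0.48). DBI stood at 31.9 and 28.05 FPKM, above both controls in FPKM and overlapping them after scaling, with a difference of 0.04 ± 0.16 (adjusted p = 0.864).

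SLIRP stood at 2.35 and 1.97 FPKM and PDCD5 at 4.84 and 4.28 FPKM, each above both controls in FPKM. After scaling SLIRP stayed above both controls and PDCD5, at 3.93 and 3.53 against 2.59 and 3.71, overlapped them. The differences were 0.18 ± 0.19 for SLIRP (limma, adjusted p = 0.461) and 0.20 ± 0.21 for PDCD5 (adjusted p = 0.469). C14orf166 stood at 6.91 and 6.27 FPKM, overlapping its controls in FPKM and below both after scaling, with a difference of -0.21 ± 0.24 (limma, adjusted p = 0.517). Rapamycin total RNA levels were 69.2% (TMA7) to 148% (SLIRP) of control by mean FPKM, beside 4.19% to 12.3% in the IP. The IP difference chose the members, and the same control libraries enter the corresponding comparison in total RNA.

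The authors' deposited table marks genes with lost binding, from log2 differences of IP relative to total between treated and control cells. In the authors' deposited table the rapamycin mark is TRUE for 12.4% of genes and for 6 of the 6 members. In the authors' deposited table the CDK12 mark is TRUE for 4.21% of genes and for 5 of the 6 members, all but DBI. Both shares are over all 26454 genes, including those the filter on low values removed here. They are not comparable with the shares of the 9908 tested genes given elsewhere. The authors' deposited table gives relative IP values after CDK12 siRNA of 0.15 for DBI, -1.31 for TMA7, -1.04 for SUB1, -1.17 for SLIRP, -0.91 for PDCD5 and -1.02 for C14orf166. After rapamycin the authors' deposited table gives -4.14 for DBI, -3.31 for TMA7, -3.40 for SUB1, -3.26 for SLIRP, -3.27 for PDCD5 and -3.20 for C14orf166. The authors' deposited table marks changed expression after CDK12 siRNA for DBI alone. These marks come from the same libraries as the choice of members.

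Across the 13 libraries, which fall into separate groups, the members' scaled log2 levels correlated with each other at r = 0.900 (TMA7 with DBI) to 0.995 (C14orf166 with SUB1). The members were chosen on control and rapamycin IP levels, which by itself favours such correlations and shapes their mean profile. Nothing is read from these correlations. The genes whose levels were most like the mean profile of the 6, among 2122 others with a mean of at least 5 FPKM, were SRP14 (r = 0.998), MRPS22, RPL26, MESDC2 and RPL36AL (each r = 0.997). SRP14, which encodes a protein of the signal recognition particle, stood at means of 76.1 FPKM in the control IP, 42.1 FPKM in the CDK12 siRNA IP and 9.10 FPKM in the rapamycin IP. RPL26, a ribosomal protein gene, stood at means of 1031, 445 and 44.6 FPKM in the same order. The nearest gene of each member was TNNT1 for DBI (r = 0.997), SAR1A for TMA7 (0.986), CDC123 for SUB1 (0.999), BTG3 for SLIRP (0.995), PSMD6 for PDCD5 (0.997) and RPL26 for C14orf166 (0.997). TNNT1, a muscle troponin gene, had mean levels in total RNA of 3.66 FPKM with control siRNA and 1.01 FPKM with CDK12 siRNA, the same order as DBI.

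Genes that work beside each member were read from lists of known partners, set against the shares of all tested genes. For DBI, 9 of 14 acyl-CoA binding and handling genes were tested. In CDK12 siRNA cells 7 were higher and 1 lower in the IP than in total RNA (all genes: 55.7% higher, 26.8% lower). In the IP 2 were higher and 3 lower after CDK12 siRNA (all genes: 13.7% higher, 18.4% lower). SCP2, a sterol carrier protein, had mean levels of 5.05 FPKM in the control IP and 8.27 FPKM in the CDK12 siRNA IP (log2 difference 0.44, limma adjusted p = 0.0674), the direction opposite to DBI. ACSL3, an acyl-CoA synthetase, fell from a mean of 9.44 to 7.91 FPKM in the IP (-0.41, adjusted p = 0.0188).

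For TMA7, 12 ribosome-associated factors were tested, and each was higher in the IP than in total RNA of CDK12 siRNA cells, with a median difference of 0.93 (55.7% of all genes were higher). After CDK12 siRNA 6 were lower and 1 higher in the IP, where 18.4% of all genes were lower and 13.7% higher. BTF3, a subunit of the nascent chain-associated complex, fell from a mean of 111 to 76.6 FPKM in the IP (-0.71, adjusted p = 0.0104). GNB2L1, the ribosomal scaffold RACK1, had means of 91.0 FPKM in the control IP and 86.0 FPKM in the CDK12 siRNA IP (-0.27, adjusted p = 0.193). In total RNA after rapamycin GNB2L1 rose from a mean of 35.1 to 69.4 FPKM (0.72, adjusted p = 0.00776).

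For SUB1, 22 of 24 general initiation factors of RNA polymerase II were tested, of which 17 were higher and 3 lower in the IP than in total RNA of CDK12 siRNA cells (all genes: 55.7% and 26.8%). In the IP 6 were lower and 0 higher after CDK12 siRNA (all genes: 18.4% and 13.7%), at a median of -0.18. TAF7, a subunit of TFIID, had means of 40.8 FPKM in the control IP and 46.1 FPKM in the CDK12 siRNA IP, and did not pass (-0.0038, adjusted p = 0.994). TAF9, another subunit of TFIID, had means of 48.2 and 46.1 FPKM there and did not pass (-0.24, adjusted p = 0.21). The IP relative to total RNA was lower after CDK12 siRNA for TAF7 (-0.75, limma adjusted p = 0.00842) and did not pass for TAF9 (-0.38, adjusted p = 0.176).

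For SLIRP, 19 of 21 genes of mitochondrial RNA metabolism were tested. In the CDK12 siRNA IP 3 were lower and 2 higher than in the control IP, near the shares over all genes of 18.4% and 13.7%. In total RNA 8 were higher and 0 lower, where 23.3% of all genes were higher and 19.5% lower. REXO2, an oligoribonuclease, rose in total RNA after CDK12 siRNA from a mean of 7.76 to 11.9 FPKM (0.76, adjusted p = 0.00107) and fell in the IP from 63.4 to 52.6 FPKM (-0.44, adjusted p = 0.0175). TFAM, which packages mitochondrial DNA, passed in neither fraction (-0.12 in the IP, adjusted p = 0.489).

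For PDCD5, all 12 genes of the chaperonin CCT and its partners were higher in the IP than in total RNA of CDK12 siRNA cells, with a median difference of 1.76 (55.7% of all genes were higher). After CDK12 siRNA 3 were lower and 0 higher in the IP, where 18.4% of all genes were lower and 13.7% higher. CCT5 fell from a mean of 108 to 64.3 FPKM in the IP (-0.93, adjusted p = 0.00432), and CCT6A had means of 92.2 and 82.5 FPKM (-0.35, adjusted p = 0.0758).

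For C14orf166, 5 of 6 genes of the tRNA ligase complex were tested, of which 4 were higher and 1 lower in the IP than in total RNA of CDK12 siRNA cells, near the all-gene shares of 55.7% and 26.8%. In the IP after CDK12 siRNA 1 was lower and 0 higher, near the all-gene share of 18.4% lower. RTCB, the ligase itself, had means of 8.09 FPKM in the control IP and 9.07 FPKM in the CDK12 siRNA IP (-0.02, adjusted p = 0.895). C2orf49, called ashwin, had means of 8.47 and 8.28 FPKM there (-0.19, adjusted p = 0.105). Its IP relative to total RNA was lower after CDK12 siRNA (-0.53, limma adjusted p = 0.00886), and that of RTCB did not pass (-0.02, adjusted p = 0.909). In that interaction 4 of the 5 were lower and 0 higher (all genes: 22.4% and 16.7%). Lower and higher were 8 and 0 for the SUB1 list, 7 and 1 for SLIRP, 6 and 1 for TMA7, 4 and 2 for PDCD5, and 1 and 2 for DBI. In the rapamycin IP the medians of all 6 partner lists were -0.39 (mitochondrial RNA metabolism) to -1.43 (chaperonin), beside a median of -3.67 over the members, which were chosen on that contrast.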

How the data were processed

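The members, the partner lists and the comparison classes were chosen with earlier results of these data known. FPKM per gene were made by the authors with HOMER's gene counting, per the file headers, over whole hg19 gene bodies. The submitters' processing notes name STAR 2.4.0k and FastQC. Libraries were depleted of ribosomal RNA and read from a single end, per the labels' protocols. Strand setting, read filters, annotation release and the treatment of reads with several matches were not given in the sources. The deposited comparison columns are log2 values that the authors computed from FPKM + 1, with TRUE or FALSE marks.

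Of the deposited lines, 3 emptied ones were left out and 28 symbols turned into dates were repaired. Depths came from low FPKM values, 100% of which were whole read multiples within a tolerance of 0.02 reads. FPKM are not counts, so log2(FPKM + 1), after median-ratio factors of 0.869 to 1.23, was tested with limma 3.58.1 (lmFit, eBayes with trend) in R 4.3.3. The 6 groups entered 1 fit (9.22 degrees of freedom), with Benjamini-Hochberg adjustment over 9908 genes within each contrast at a threshold of 0.05. The fit was run on simulated data for the CDK12 siRNA IP against the control IP only, with the same spread in all groups. That simulation does not bear on the other contrasts or on groups of unequal spread. Named genes are the members, the 5 genes most like their mean profile, the nearest gene of each member, and the 2 most abundant of each partner list. Contrasts with the control IP were planned as tests of the members, but those libraries chose them, so they are described only. No protein lengths were used here. Alternatives changed scaling, pseudocount, filter, length trend, replicate block, library weights, the groups fitted and the libraries. Tables and plots used Python 3.11.15, pandas 2.3.3 and matplotlib 3.10.9.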

Additional observations from a re-analysis of the deposited data

Results flagged for a closer look

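In 4 members every CDK12 siRNA library lay below the control libraries in the IP and above them in total RNA, in FPKM. The share of all tested genes with this pattern was not computed, so nothing is read from that count. The members were chosen for a high control IP relative to control total RNA, which by itself favours this pattern. The log2 difference between the change in the IP and the change in total RNA was -1.41 for SUB1 and -1.49 for SLIRP. It was -1.27 for PDCD5 and -1.39 for C14orf166. The difference was not tested here, because the control IP and control total RNA libraries in it are those that chose the members.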

How the results depend on the processing

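Over all member values and alternatives, 428 kept their direction and side of the threshold, 32 lost the call, 19 gained one and 7 changed sign. In CDK12 siRNA cells IP over total called 5 or 6 members under every alternative that kept all libraries of both groups. Of all tested genes 61.0% (without the filter) to 92.3% (mean of at least 5 FPKM) passed there. In the CDK12 siRNA IP 6 members stood past the threshold (32.0% of all tested genes). The count was 2 under quantile normalization (22.4%) and 4 with library weights (11.2%). With a control IP library left out it was 4 to 5 (25.7% to 26.5%). Nothing is read from these counts. In total RNA after CDK12 siRNA 2 were called, but 1 without scaling, with a pseudocount of 5, without the filter and with the replicate block, 4 under quantile normalization or with the compared groups alone, 5 with library weights, and 1 to 2 with a library left out. In total RNA after rapamycin 0 were called, but 1 under quantile normalization, with a pseudocount of 0.1, with factors from tested genes, with the replicate block and with library weights, 2 with the compared groups alone, and 0 with any library left out. In the interaction, also a description, 4 to 5 members stood past the threshold (39.2% of all tested genes in the main fit). The count was 5 with the replicate block (38.3%) and with library weights (32.4%). It was also 5 under quantile normalization (50.3%), where DBI was in the opposite direction to the other 4. The rapamycin difference of DBI in total RNA changed sign to -0.41 under quantile normalization, -0.067 with the length trend removed and -0.10 with factors from tested genes, and ran from -0.040 (without rapamycin replicate 1) to 0.12 with a library left out. That of C14orf166 changed to 0.0096 without scaling. The interaction of DBI changed sign to 0.15 without scaling and 0.70 under quantile normalization. The cause was not tested. The median of all genes in IP over total of CDK12 siRNA cells was 0.50 without scaling and 0.05 under quantile normalization, against 0.40. Same-numbered libraries deviated together at r = -0.11 to 0.17. In a group of 2 libraries the deviations mirror each other, so these values cannot settle whether numbers pair samples. With the replicate block the SE of TMA7 in the CDK12 siRNA IP contrast was 0.26, against 0.43 in the main fit. Factors from tested genes were added after seeing the data. TMA7 rests on 62 to 2588 reads per library, which limits its precision.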
